A study of Mus musculus with 8 samples.

Results

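Of 15009 genes with enough reads to be tested in mouse liver, 8022 (53.4%) had a difference between mA3 and vector libraries of the same sign in tumour and in non-tumour liver, and these 8022 genes are described here. Of them, 3786 were higher and 4236 were lower in mA3 libraries of both tissues, while the other 6987 genes had opposite signs or 0 in a tissue. The sign was read from log2 differences, mA3 minus vector, in a model with 1 coefficient for each of the 4 groups, and the difference over both tissues came from a model with tissue as a covariate. Because the sign in each tissue chose the genes, that sign is not itself a result.

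Messenger RNA was sequenced from male, age-matched mice in which the carcinogen diethylnitrosamine (DEN) had induced hepatocellular carcinoma, 8 months after DEN. The groups were tumour of mice injected with a pT3 plasmid for mouse APOBEC3B (titled mA3, mice 1 and 2), tumour of mice injected with the empty pT3 vector (mice 1 and 9), and the tissue labelled as relatively normal, called non-tumour liver here, of the same mA3 mice and of the same vector mice. DEN was thus common to all groups, neither strain nor plasmid promoter was given in the labels, and each of the 4 mice gave 1 tumour and 1 non-tumour library. By its title, the series asks what APOBEC3B does in this cancer.

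APOBEC3 proteins are cytidine deaminases that act on single-stranded DNA and restrict retroviruses; the mouse carries a single Apobec3 gene, which was taken as the gene meant by the labels. Several of the genes lower in mA3 with the smallest p belong to fatty acid breakdown. In fasting liver, fatty acids released from fat or from lipid droplets activate the nuclear receptor PPAR alpha, which switches on their omega-hydroxylation in the endoplasmic reticulum, their beta-oxidation in peroxisomes and mitochondria, and the making of ketone bodies. The clock, feeding and the sex-specific pattern of growth hormone are all known to change the same liver genes over a day or between animals.

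Library totals lay between 12969929 and 22882531 counts. The hepatocyte markers Alb, Ttr, Apoa1, Hnf4a and Cps1 were present in every library, with Alb at 171220 and 156531 CPM (counts relative to TMM-scaled library size) in mA3 tumours and at 60319 and 130107 CPM in vector tumours. The tumour marker Afp, a fetal liver protein, was at 102 and 184 CPM in mA3 tumours and at 19.7 and 46.8 CPM in vector tumours. On the first principal component, which held 50.73% of the variance, the library of vector tumour 1 lay at -31.77, nearer to the non-tumour libraries (-61.23 to -42.54) than to the other tumours (60.68 to 101.8). Both libraries of vector mouse 9 stood apart in clock genes, as given below with the results they touch. All libraries are bulk tissue, in which fewer cells of a type and less RNA per cell cannot be told apart.

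Apobec3 (ENSMUSG00000009585, protein coding, chromosome 15, 79891659 to 79915906 on the plus strand, GRCm38) was higher in mA3 than in vector libraries by the fitted difference in both tissues, but by very unequal amounts. In non-tumour liver it was at 45.0 and 35.1 CPM in mA3 mice 1 and 2, against 2.71 and 9.96 CPM in vector mice 1 and 9, with no overlap. In tumour it was at 10.6 and 15.3 CPM in the libraries labelled mA3, against 7.85 and 15.2 CPM in those labelled vector, so that the plasmids were not separated there. The log2 difference over both tissues was 1.41 ± 0.62 (SE; edgeR quasi-likelihood, Benjamini-Hochberg adjusted p = 0.710), made up of 2.67 ± 0.62 in non-tumour liver and 0.17 ± 0.58 in tumour. The difference between these (interaction -2.51 ± 0.83 on the log2 scale) also did not pass (edgeR adjusted p = 0.842). With the mouse as the unit, the mean log2 difference was 1.56, and an exact permutation test gave p = 0.333, the smallest that 2 mice against 2 allow. Reads from the plasmid and from the mouse's own gene are counted together, and a tumour called mA3 below is one that carries that label.

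Over both tissues no gene passed an adjusted p of 0.05 in edgeR's quasi-likelihood test (0 of 15009, smallest adjusted p = 0.710), and 1023 genes (6.82%) had an unadjusted p under 0.05. Of those 1023, 460 (3.06%) were higher and 563 (3.75%) were lower in mA3, and 1014 were among the same-sign genes, which the choice by sign largely fixes. DESeq2 on the same genes called 54 (14 higher and 40 lower), and edgeR without a filter on low counts called 294 of 23237. Libraries of mA3 and vector did not overlap within either tissue for 968 genes (6.45%), 490 of them higher (3.26%) and 478 lower (3.18%) in mA3. Since no gene passed in the edgeR test, the genes below are given by their levels, as higher or lower, and not as changed. Per tissue, 2127 genes (14.2%) had an unadjusted p under 0.05 in tumour and 155 (1.03%) in non-tumour liver, with 0 past adjustment in either in edgeR. DESeq2 called 508 in tumour and 0 in non-tumour liver, and edgeR without a filter on low counts called 1084 and 56. The interaction of plasmid and tissue had 749 genes (4.99%) at unadjusted p under 0.05 and 0 past adjustment in edgeR, against 12 in DESeq2.

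Across the 15009 genes the tumour and the non-tumour difference correlated weakly (Pearson 0.18, Spearman 0.14), a description over genes whose libraries come from the same 4 mice. The typical size of a difference was 0.50 on the log2 scale in tumour and 0.23 in non-tumour liver (median of absolute values). At the limit of the same-sign rule, Sh3bp4 (1.914 in tumour, 0.009 in non-tumour liver) and Vasp (1.532 and 0.029) lay just inside. Aebp1 (2.120 and -0.004) and Nr0b2 (-1.886 and 0.012) lay just outside.

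**Figure D1:**
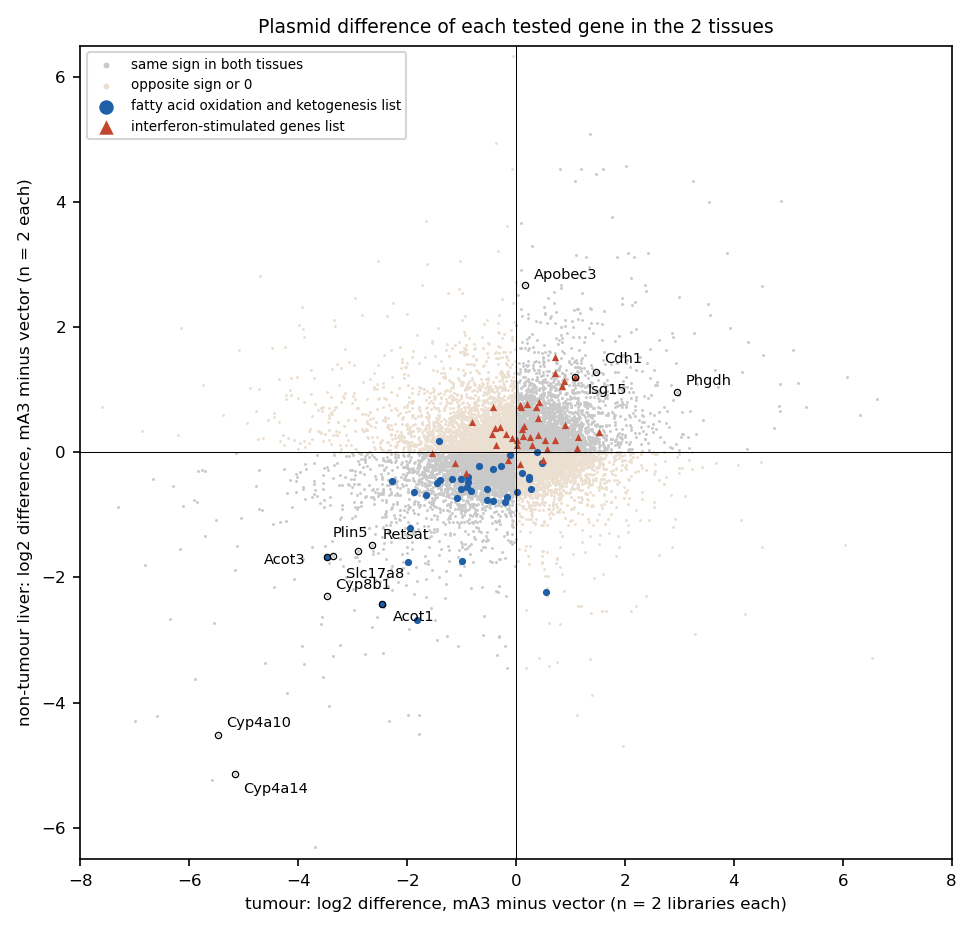
Log2 difference, mA3 minus vector, of each tested gene in tumour (x axis) and in non-tumour liver (y axis), with 4 genes outside the axes; grey points have the same sign in both tissues, blue points are fatty acid oxidation genes and red triangles interferon-stimulated genes. Cyp4a10 and Cyp4a14 lie far down in the lower left, and Apobec3 lies near 0 in tumour (0.17) and at 2.67 in non-tumour liver.

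The genes lower in mA3 with the smallest p included several of fatty acid handling. The 12 named by a fixed rule (smallest p, no overlap between plasmids in either tissue, mean of at least 5 CPM) were Slc17a8, Plin5, Retsat, Cyp4a32, Avpr1a, Angptl4, Cyp4a10, Acot1, Cyp8b1, Cyp4a14, Pex11a and Acot3. Their log2 differences over both tissues ran from -5.16 to -1.56. Each had an edgeR adjusted p of 0.710, and all 12 were among the genes DESeq2 called. A list of PPAR alpha targets, written after these values were seen and therefore no independent evidence, holds 10 of the 12.

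Promoters of 2 of these genes are shown because every mA3 library was below every vector library of its tissue, at the surface of the lipid droplet (Plin5) and in retinol metabolism (Retsat). The windows run from 250 bases before to 50 bases after the gene's start (RefSeq, GRCm38.p6, chr17:56117499-56117798 on the minus strand and chr6:72598352-72598651 on the plus strand), with any match to AGGTCA, the hexamer that nuclear receptors such as PPAR alpha read as a repeat, in capitals.
Plin5: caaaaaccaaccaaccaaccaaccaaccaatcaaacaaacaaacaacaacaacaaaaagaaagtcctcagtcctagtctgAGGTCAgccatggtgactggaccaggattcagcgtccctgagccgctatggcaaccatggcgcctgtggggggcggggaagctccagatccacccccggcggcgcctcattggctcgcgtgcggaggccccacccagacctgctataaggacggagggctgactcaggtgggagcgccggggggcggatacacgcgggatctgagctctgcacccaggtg
Retsat: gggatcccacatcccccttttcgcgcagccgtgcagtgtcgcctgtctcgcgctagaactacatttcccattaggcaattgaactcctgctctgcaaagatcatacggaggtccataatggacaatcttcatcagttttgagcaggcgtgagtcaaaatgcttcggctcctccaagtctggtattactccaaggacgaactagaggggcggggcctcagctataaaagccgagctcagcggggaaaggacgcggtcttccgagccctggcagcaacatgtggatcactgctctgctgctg
On either strand, AGGTCA occurred once in the Plin5 window and not in that of Retsat, nor in those of Cyp4a32 and Acot1, which are not shown. It occurred in 7 of the 30 fatty acid oxidation genes with a promoter entry (23.3%), against 1692 of 10729 tested genes (15.8%) and 4900 of all 27025 genes with one (18.1%). For the PPAR alpha list, written after the values were seen, it was 13 of 43 (30.2%). A direct repeat of AGGTCA with 1 base between the copies, searched on both strands, was in 0 of the 30 and in 13 of the 27025 (0.0481%). These are matches of letters in a short window only.

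Of 22 tested genes of lipid droplets and lipid uptake, 5 were lower (22.7%, beside 3.75% of all genes) and 1 was higher (4.55%, beside 3.06%) at unadjusted p under 0.05. Plin5, a perilipin that ties lipid droplets to mitochondria, was at 3.44 and 4.56 CPM in mA3 tumours, against 30.2 and 30.0 CPM in vector tumours. In non-tumour liver it was at 22.1 and 27.3 CPM in mA3 mice, against 39.6 and 108 CPM in vector mice. Both tissues were separated by plasmid, and the log2 difference was -2.23 ± 0.39 (SE) over both. Plin4, a related droplet coat protein, differed by -3.96 ± 0.91, but its non-tumour libraries overlapped, at 20.5 and 10.3 CPM in mA3 mice against 11.6 and 305 CPM in vector mice. The gene that was higher was Abhd5, the activator of the triglyceride lipase ATGL (log2 1.00 ± 0.38). The median of the list was -0.66, and -0.21 without both libraries of vector mouse 9. Without mA3 tumour 1 the median was -0.53, and without both libraries of vector mouse 1 it was -0.45.

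Cyp4a14 and Cyp4a10, omega-hydroxylases of fatty acids, had the largest log2 differences of the 12. Cyp4a10 was at 1.08 and 6.92 CPM in mA3 tumours, against 123 and 235 CPM in vector tumours. In non-tumour liver it was at 42.8 and 80.8 CPM in mA3 mice, against 154 and 2690 CPM in vector mice 1 and 9. The groups did not overlap, and vector mouse 9 was far above vector mouse 1 in non-tumour liver. Its log2 difference of -4.99 ± 0.96 was -3.50 without both libraries of that mouse. Cyp4a14 behaved alike in size (-5.16 ± 1.16), with 0.590 and 6.26 CPM in mA3 tumours against 48.5 and 201 CPM in vector tumours, and 26.1 and 79.7 CPM in mA3 non-tumour liver against 119 and 3603 CPM in vector non-tumour liver. Without vector mouse 9 the value for Cyp4a14 was -2.67. Cyp4a32, of the same family, differed by only -1.59 ± 0.29 over both tissues. Cyp4a and Acot genes have close copies, so that reads may be split between them and the value of a single copy is uncertain.

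The thioesterases Acot1 and Acot3, which split acyl-CoA, and Pex11a were also among the 12. Acot1, a cytosolic thioesterase, was at 1.82 and 1.95 CPM in mA3 tumours, against 8.43 and 12.4 CPM in vector tumours, and at 10.8 and 17.0 CPM in mA3 non-tumour liver, against 20.0 and 130 CPM in vector non-tumour liver. Its log2 difference was -2.44 ± 0.51, nearly equal in tumour (-2.46) and in non-tumour liver (-2.43), and -1.38 without vector mouse 9. Acot3, a peroxisomal thioesterase, differed by -2.48 ± 0.57. Pex11a, which takes part in peroxisome division, was at 23.2 and 24.3 CPM in mA3 tumours, against 121 and 62.4 CPM in vector tumours, and at 78.2 and 83.1 CPM in mA3 non-tumour liver, against 104 and 270 CPM in vector non-tumour liver. Its mA3 tumours were close together and well below every other library.

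**Figure D2:**
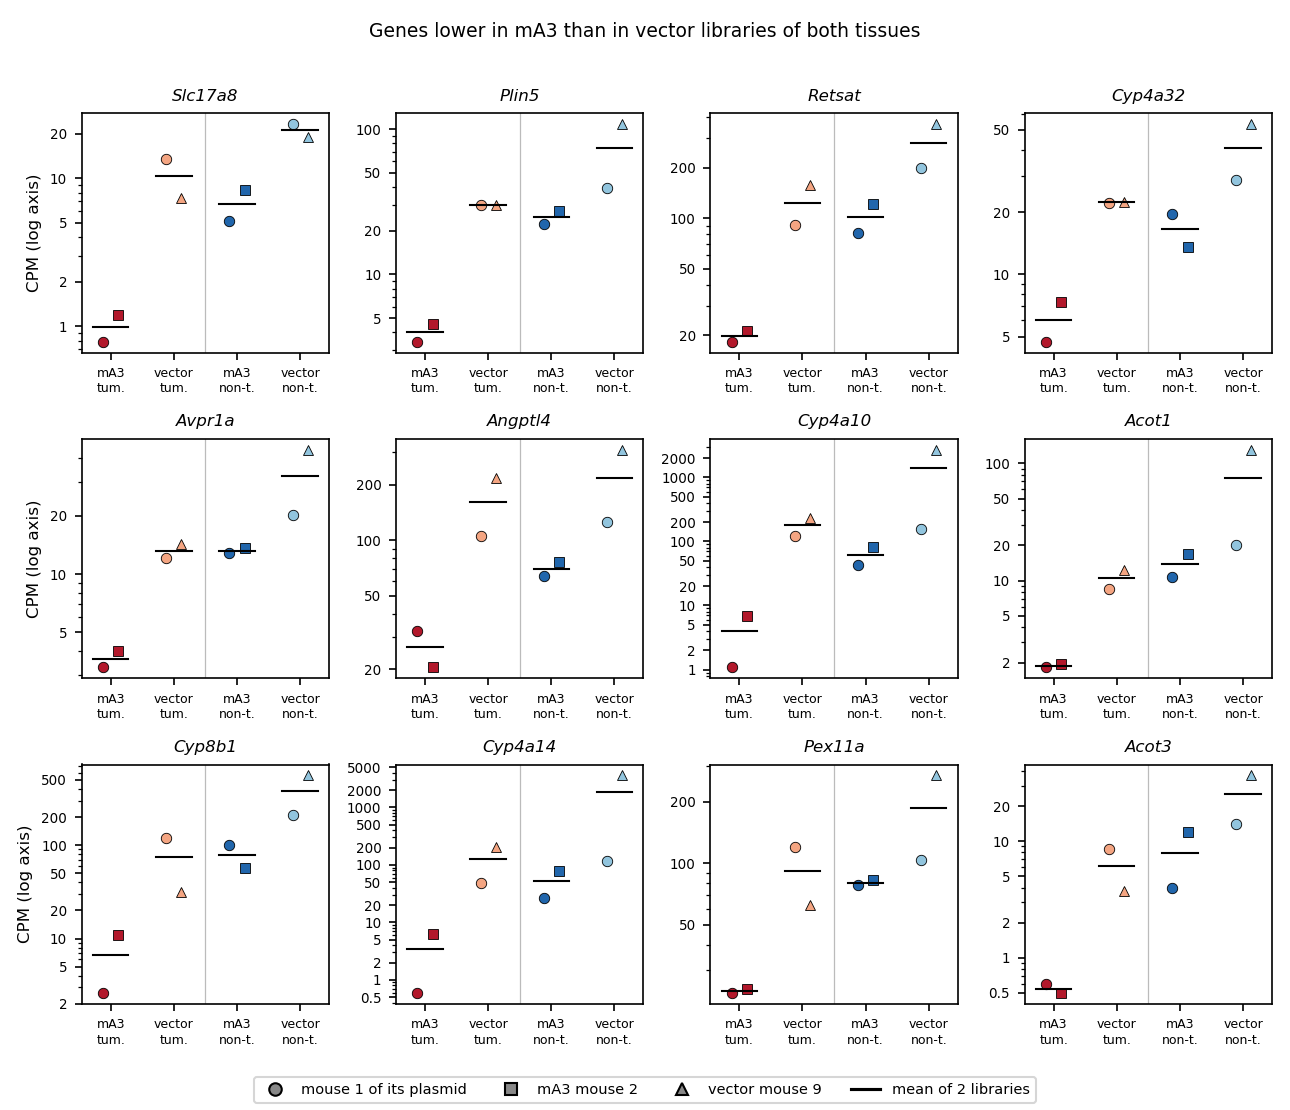
Level in each library (CPM, log axis) of the 12 genes lower in mA3, with mA3 left of vector in tumour and then in non-tumour liver; symbols mark the mouse and the bar is the mean of 2 libraries. The mA3 libraries lie below the vector libraries within each tissue in every panel, as the rule that chose the genes requires, and vector mouse 9 is the highest non-tumour library in all panels but that of Slc17a8.

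Of the 37 genes of fatty acid oxidation and ketogenesis, all tested, 22 were lower (59.5%) and 0 higher at unadjusted p under 0.05, beside 3.75% lower and 3.06% higher of all genes. Past adjustment were 0 in edgeR, 6 in DESeq2 and 7 in edgeR without a filter on low counts. For 20 of the 37 (54.1%, beside 3.18% of all genes) the mA3 libraries lay below the vector libraries in both tissues with no overlap. By the choice of genes, 28 of the 37 are lower and 1 is higher in both tissues, where 28.2% and 25.2% of all genes are, and nothing is read from these counts. The median log2 difference was -0.68 over both tissues, -0.89 in tumour and -0.58 in non-tumour liver, against -0.01, -0.02 and -0.01 over all genes.

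Enzymes of single steps are named here after their values were seen. At the peroxisome, Ehhadh, the bifunctional enzyme, differed by -1.87 ± 0.50, and Eci2, an enoyl-CoA isomerase that the naming rule also picked, by -1.26 ± 0.31. In mitochondria, Cpt2, which rebuilds acyl-CoA from carnitine esters, differed by -0.72 ± 0.25, and Acadm, the medium-chain dehydrogenase, by -0.65 ± 0.25. None of these overlapped between plasmids within a tissue.

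The messenger of the receptor PPAR alpha itself, Ppara, was not separated by plasmid: it was at 40.4 and 63.2 CPM in mA3 tumours against 51.9 and 44.3 CPM in vector tumours, and at 48.5 and 113 CPM in mA3 non-tumour liver against 147 and 56.2 CPM in vector non-tumour liver (log2 -0.11 ± 0.38). Its sign differed between the tissues, 0.11 in tumour and -0.33 in non-tumour liver.

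Clock genes set vector mouse 9 apart from the other 3 mice in both tissues. Arntl, a core activator of the clock, was at 2.80 and 4.35 CPM in mA3 tumours, against 0.803 and 38.3 CPM in vector tumours 1 and 9, and at 1.96 and 1.24 CPM in mA3 non-tumour liver, against 1.05 and 29.0 CPM in vector non-tumour liver 1 and 9. Dbp, an output gene of opposite phase, was at 149 and 157 CPM in mA3 tumours, against 207 and 2.54 CPM in vector tumours, and at 131 and 107 CPM in mA3 non-tumour liver, against 143 and 2.43 CPM in vector non-tumour liver. Vector mouse 1 thus sat with the mA3 mice for these genes and vector mouse 9 did not. Of 24 clock genes tested, 4 were lower (16.7%, beside 3.75% of all genes) at unadjusted p under 0.05, namely Npas2, Lonrf3, Arntl and Nfil3, each highest in the libraries of vector mouse 9, and 0 were higher. For Arntl, every mA3 library lay above the library of vector mouse 1 of its tissue, so that without vector mouse 9 its difference is of the other sign. The median of the 24 was -0.04. With both libraries of vector mouse 1 left out it was 0.61, and without those of vector mouse 9 it was -0.32. The labels used here give no time of day or feeding state.

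Without both libraries of vector mouse 9, 11 of the 37 fatty acid oxidation genes were lower at unadjusted p under 0.05, beside 463 of 15681 genes, and their median was -0.49. Without both libraries of mA3 mouse 1, 5 were lower, beside 258 of 15362 genes, with a median of -0.60. When mA3 mouse 2 was left out in both tissues, 8 were lower, beside 185 of 15592 genes, with a median of -0.71. When vector mouse 1 was left out in both tissues, 23 were lower, beside 1412 of 15592 genes, with a median of -0.75, and 8 passed adjustment in edgeR. Without vector tumour 1 and vector non-tumour 9 together, the median was -0.71. Whether the clock state of vector mouse 9 has a part in the differences above was not tested.

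**Figure D3:**
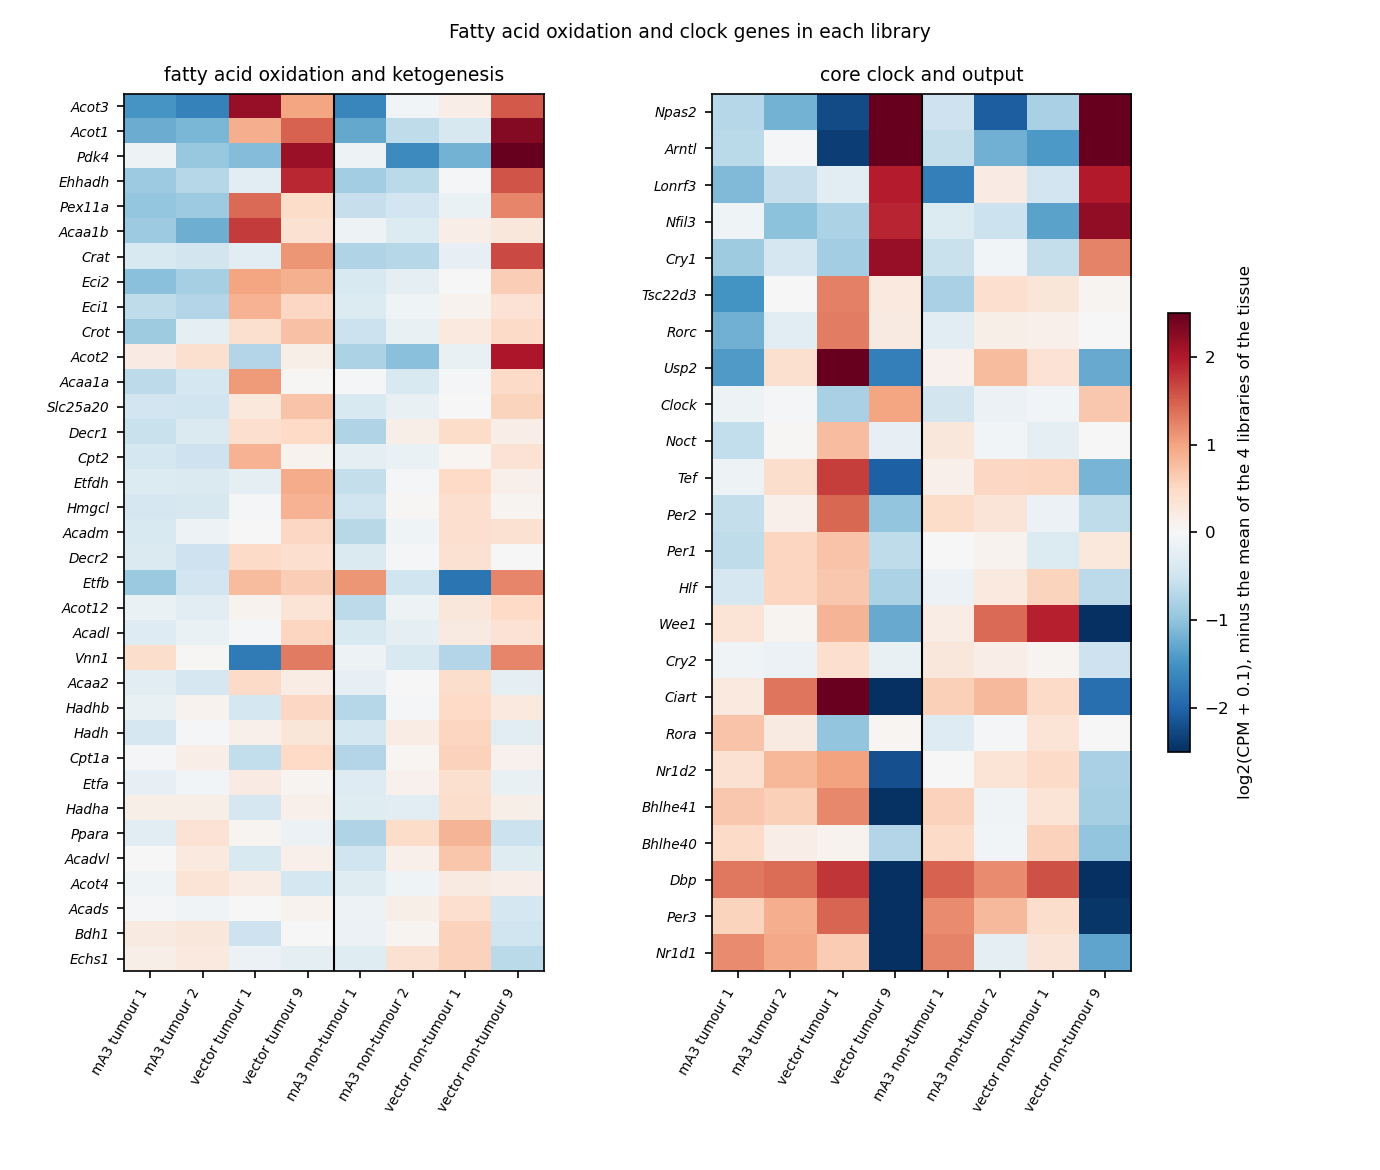
Level in each library of 35 of the 37 fatty acid oxidation genes (left) and the 24 clock genes (right), as log2(CPM + 0.1) minus the mean of the 4 libraries of its tissue, with mA3 columns left of vector columns. Fatty acid oxidation genes are mostly blue in mA3 and red in vector columns, whereas the clock genes divide vector mouse 9 from the other 3 mice.

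Angptl4, Retsat, Slc17a8 and Avpr1a, also among the 12, differ in function. Angptl4, a secreted inhibitor of lipoprotein lipase, was at 32.1 and 20.5 CPM in mA3 tumours, against 106 and 217 CPM in vector tumours, and at 64.2 and 75.9 CPM in mA3 non-tumour liver, against 126 and 309 CPM in vector non-tumour liver (log2 -2.12 ± 0.41). Retsat, the retinol saturase, was at 18.3 and 21.3 CPM in mA3 tumours, against 90.6 and 157 CPM in vector tumours, and at 82.0 and 121 CPM in mA3 non-tumour liver, against 199 and 364 CPM in vector non-tumour liver (log2 -2.06 ± 0.37). Slc17a8, a vesicular glutamate transporter, had the smallest p of the 12 (log2 -2.46 ± 0.43). It stood at 0.787 and 1.20 CPM in mA3 tumours, against 13.4 and 7.35 CPM in vector tumours, and at 5.18 and 8.31 CPM in mA3 non-tumour liver, against 23.2 and 19.1 CPM in vector non-tumour liver. This is the one gene of the 12 for which vector mouse 9 was not the highest non-tumour library, and its value without that mouse was -2.82. Avpr1a, the hepatocyte vasopressin receptor, differed by -1.56 ± 0.29.

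Of 25 tested genes of bile acid synthesis and transport, 9 were lower (36.0%, beside 3.75% of all genes) and 0 higher at unadjusted p under 0.05. For 7 (28.0%, beside 3.18%) the mA3 libraries lay below with no overlap in either tissue, and the median was -0.73. It was -1.32 in tumour and -0.28 in non-tumour liver. Cyp8b1, the sterol hydroxylase that directs synthesis to cholic acid, was at 2.61 and 10.8 CPM in mA3 tumours, against 119 and 31.3 CPM in vector tumours, and at 100 and 57.0 CPM in mA3 non-tumour liver, against 210 and 559 CPM in vector non-tumour liver (log2 -2.88 ± 0.64). Slc27a2, a fatty acid and bile acid CoA ligase, differed by -1.23 ± 0.31, and the sinusoidal anion carrier Slco1a4 by -2.61 ± 0.83. Abcb4, the phospholipid exporter of the canaliculus, differed by -0.73 ± 0.24. For each the plasmids did not overlap in either tissue. Without both libraries of vector mouse 9 the median was -1.06, and without those of mA3 mouse 2 it was -0.84. When vector mouse 1 was left out in both tissues it was -0.36, and without both libraries of mA3 mouse 1 it was -0.64. With 1 library left out, the median was nearest to 0 without vector tumour 1 (-0.41). The count of lower genes changed with the mouse left out and fell without either mA3 tumour.

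The lists of cytochrome P450 genes and of the urea cycle and amino acid breakdown also had lower medians in tumour than in non-tumour liver. Of 55 cytochrome P450 genes, 10 were lower (18.2%, beside 3.75% of all genes) and 0 higher at unadjusted p under 0.05, with a median of -1.54 in tumour and -0.11 in non-tumour liver. The median over both tissues was -0.89, and -0.25 without vector tumour 1. With both libraries of vector mouse 1 left out, the median was -0.30, and members past that threshold were no longer all on the lower side. Without those of mA3 mouse 1 the median was -0.73. Besides the Cyp4a genes, Cyp2c39, a member of the mouse Cyp2c cluster, was lower without overlap (log2 -2.46 ± 0.48). Of 44 genes of the urea cycle and amino acid breakdown, 6 were lower (13.6%) and 0 higher, with medians of -0.74 in tumour and 0.04 in non-tumour liver. Aass, of lysine breakdown (log2 -0.74 ± 0.22), Csad, of taurine synthesis (-1.58 ± 0.52), and Cdo1, the cysteine dioxygenase (-1.12 ± 0.37), did not overlap in either tissue. Bhmt, which remethylates homocysteine, differed by -1.88 ± 0.53 but overlapped between plasmids in non-tumour liver. Over both tissues the median of the 44 was -0.35. With 1 mouse left out it was -0.21 (mA3 mouse 1), -0.58 (mA3 mouse 2), -0.16 (vector mouse 1) and -0.53 (vector mouse 9).

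Hepatocyte transcription factors split. Of 24, 6 were lower (25.0%, beside 3.75% of all genes) and 0 higher at unadjusted p under 0.05, yet the median was 0.02. Nr1h4, the bile acid receptor FXR, was at 62.9 and 58.5 CPM in mA3 tumours, against 277 and 101 CPM in vector tumours, and at 183 and 132 CPM in mA3 non-tumour liver, against 192 and 261 CPM in vector non-tumour liver (log2 -1.08 ± 0.39). Foxa1, a pioneer factor, differed by -0.54 ± 0.22, also with no overlap. Cebpb (-1.01 ± 0.31) and Nr1i3, the xenobiotic receptor CAR (-1.44 ± 0.52), overlapped in non-tumour liver. With 1 mouse left out, the median ran from -0.29 (without mA3 mouse 2) to 0.14 (without vector mouse 1). The count of lower genes depended on the mouse left out.

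Among acute-phase and female-biased genes, several were highest in vector mouse 9. Of 28 acute-phase genes, 6 were lower (21.4%, beside 3.75% of all genes) and 0 higher at unadjusted p under 0.05, and for 0 of the 28 were the plasmids free of overlap in both tissues. Saa2, a serum amyloid protein, was at 2.41 and 3.61 CPM in mA3 tumours, against 7.34 and 11.7 CPM in vector tumours, and at 19.8 and 17.8 CPM in mA3 non-tumour liver, against 7.67 and 180 CPM in vector non-tumour liver. Mt1, a metallothionein, was at 91.7 and 27.9 CPM in mA3 tumours, against 48.7 and 557 CPM in vector tumours, and at 7.89 and 14.0 CPM in mA3 non-tumour liver, against 21.1 and 410 CPM in vector non-tumour liver. The high values in both genes were those of vector mouse 9. Of 25 genes known to be higher in female liver, 7 were lower (28.0%, beside 3.75% of all genes) and 2 higher (8.00%, beside 3.06%). One of them, Cyp2c69, was at 1.13 and 0.829 CPM in mA3 tumours, against 2.75 and 17.3 CPM in vector tumours, and at 18.7 and 13.2 CPM in mA3 non-tumour liver, against 4.16 and 303 CPM in vector non-tumour liver. Without both libraries of vector mouse 9, the median was 0.17 for acute-phase and -0.01 for female-biased genes. In neither list did lower genes then outnumber higher ones at that threshold. The corresponding medians with that mouse were -0.44 and -1.44. With both libraries of vector mouse 1 left out, the medians were -0.83 for acute-phase and -1.49 for female-biased genes.

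The messengers of the mitochondrial genome were lower in the fit of both tissues for all 13 tested, 7 of them (53.8%, beside 3.75% of all genes) at unadjusted p under 0.05. The median was -1.86 in tumour and -0.44 in non-tumour liver. For none of the 13 were the plasmids free of overlap in both tissues. mt-Cytb, a subunit of respiratory complex III, was at 3195 and 3937 CPM in mA3 tumours, against 21439 and 8918 CPM in vector tumours, and at 11433 and 8857 CPM in mA3 non-tumour liver, against 10347 and 18475 CPM in vector non-tumour liver. The highest library of each tissue was vector tumour 1 and vector non-tumour 9, and without both of them the median was -0.54 and 0 of 13 had an unadjusted p under 0.05. The count was also 0 without mA3 mouse 1, without mA3 mouse 2 and without vector mouse 9. Without vector mouse 1 it was 12 of 13, of which 2 passed adjustment in edgeR, with a median of -0.96 (-1.12 with that mouse).

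**Figure D4:**
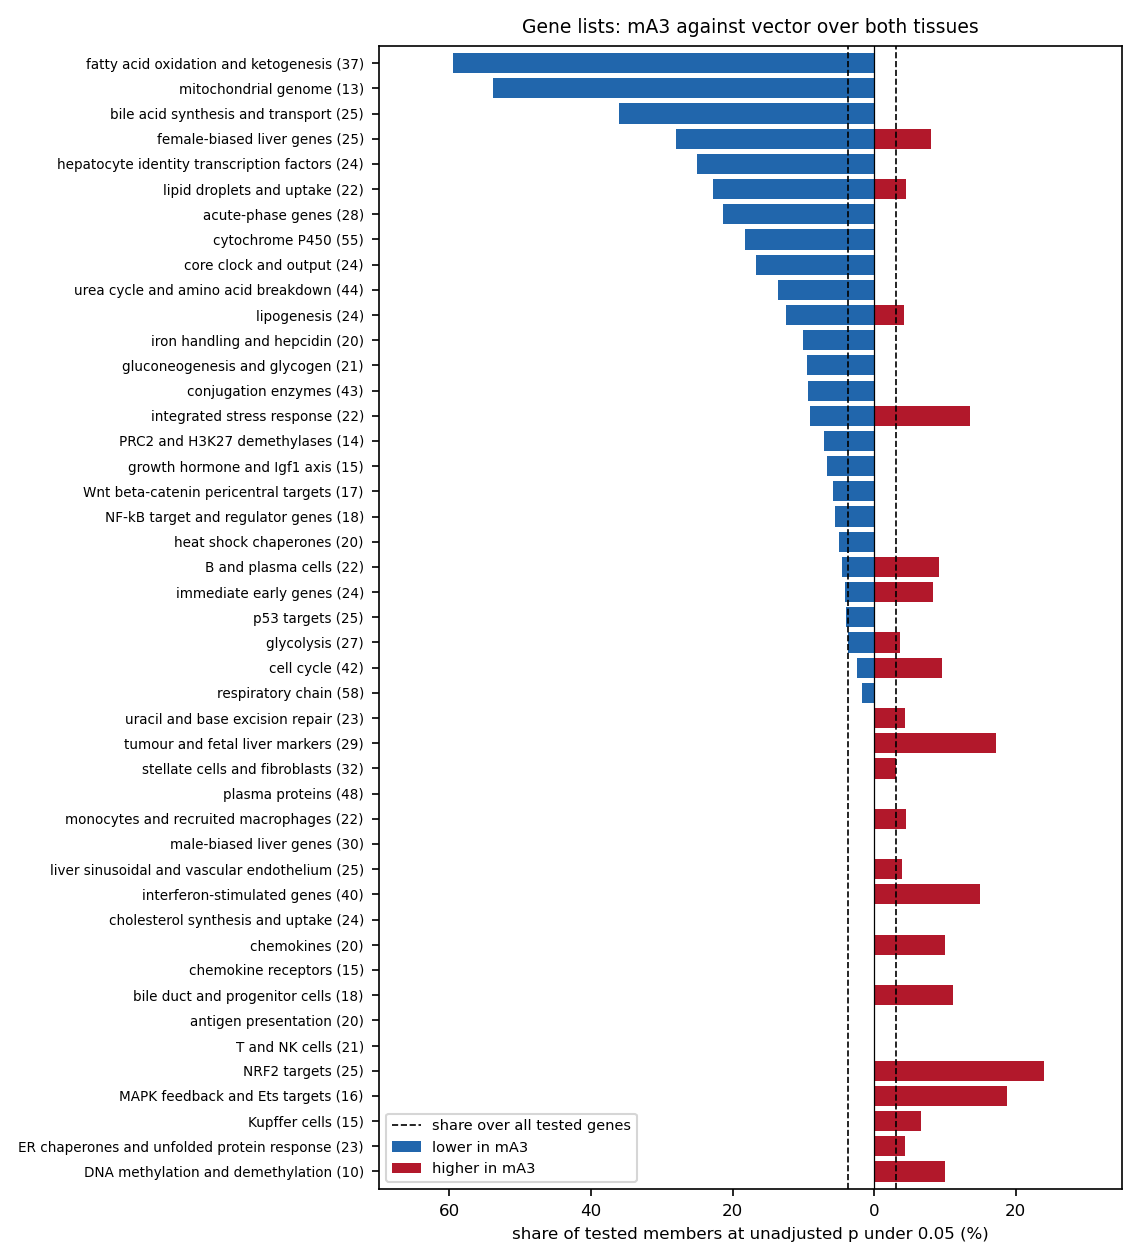
Share of the tested members of each gene list (number tested in brackets) at unadjusted p under 0.05 over both tissues, lower in mA3 to the left and higher to the right; dashed lines give the shares over all 15009 genes (3.75% lower, 3.06% higher). Fatty acid oxidation and ketogenesis reaches 59.5% on the lower side, and NRF2 targets 24.0% on the higher side.

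The 12 genes higher in mA3 named by the same rule were Inf2, Smpd3, Slc41a2, Atf3, Actn1, Phgdh, Tmem51, Isg15, Stim2, Hapln4, Cdh1 and S1pr3, with log2 differences from 0.70 to 2.26 and an edgeR adjusted p of 0.710 each. DESeq2 called 3 of them, Inf2, Smpd3 and Slc41a2.

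Inf2, Actn1 and Cdh1 act on actin or on adhesion between cells. Inf2, a formin that builds actin filaments, was at 101 and 87.6 CPM in mA3 tumours, against 42.5 and 47.2 CPM in vector tumours, and at 80.6 and 52.6 CPM in mA3 non-tumour liver, against 38.7 and 30.5 CPM in vector non-tumour liver. Its log2 difference was 1.07 in tumour and 0.94 in non-tumour liver, close to each other, and 1.01 ± 0.22 over both. Actn1, the actin crosslinker alpha-actinin, was at 110 and 117 CPM in mA3 tumours, against 43.1 and 47.7 CPM in vector tumours, and at 44.4 and 31.6 CPM in mA3 non-tumour liver, against 29.1 and 15.5 CPM in vector non-tumour liver (1.05 ± 0.26). Cdh1, the epithelial adhesion protein E-cadherin, was at 225 and 190 CPM in mA3 tumours, against 32.7 and 117 CPM in vector tumours, and at 27.1 CPM in both mA3 non-tumour libraries, against 13.0 and 9.18 CPM in vector non-tumour liver (1.38 ± 0.37). For these 3 genes every mA3 library lay above every vector library of its tissue. Smpd3, a neutral sphingomyelinase, differed by 1.26 ± 0.28, S1pr3, a receptor of sphingosine phosphate, by 1.10 ± 0.30, and Hapln4, a link protein of the matrix, by 0.95 ± 0.25. Slc41a2, a magnesium transporter, differed by 1.22 ± 0.28, and Stim2, a calcium sensor of the endoplasmic reticulum, by 0.70 ± 0.18.

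The others of the 12 were Atf3, Phgdh, Isg15 and Tmem51, a transmembrane protein (log2 0.86 ± 0.22). Atf3, a stress-induced transcription factor, was at 28.5 and 16.5 CPM in mA3 tumours, against 3.32 and 6.80 CPM in vector tumours, and at 1.39 and 1.99 CPM in mA3 non-tumour liver, against 0.652 and 1.10 CPM in vector non-tumour liver (log2 1.64 ± 0.40). Phgdh, which opens the serine synthesis pathway, was at 29.8 and 11.2 CPM in mA3 tumours, against 1.49 and 3.76 CPM in vector tumours (log2 2.96 in tumour). In non-tumour liver Phgdh was low throughout, at 0.654 and 0.549 CPM in mA3 mice against 0.301 and 0.314 CPM in vector mice. Its difference over both tissues therefore rests mainly on tumour. On the list of the integrated stress response, 3 of 22 genes were higher (13.6%, beside 3.06% of all genes) and 2 were lower (9.09%, beside 3.75%) at unadjusted p under 0.05.

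**Figure D5:**
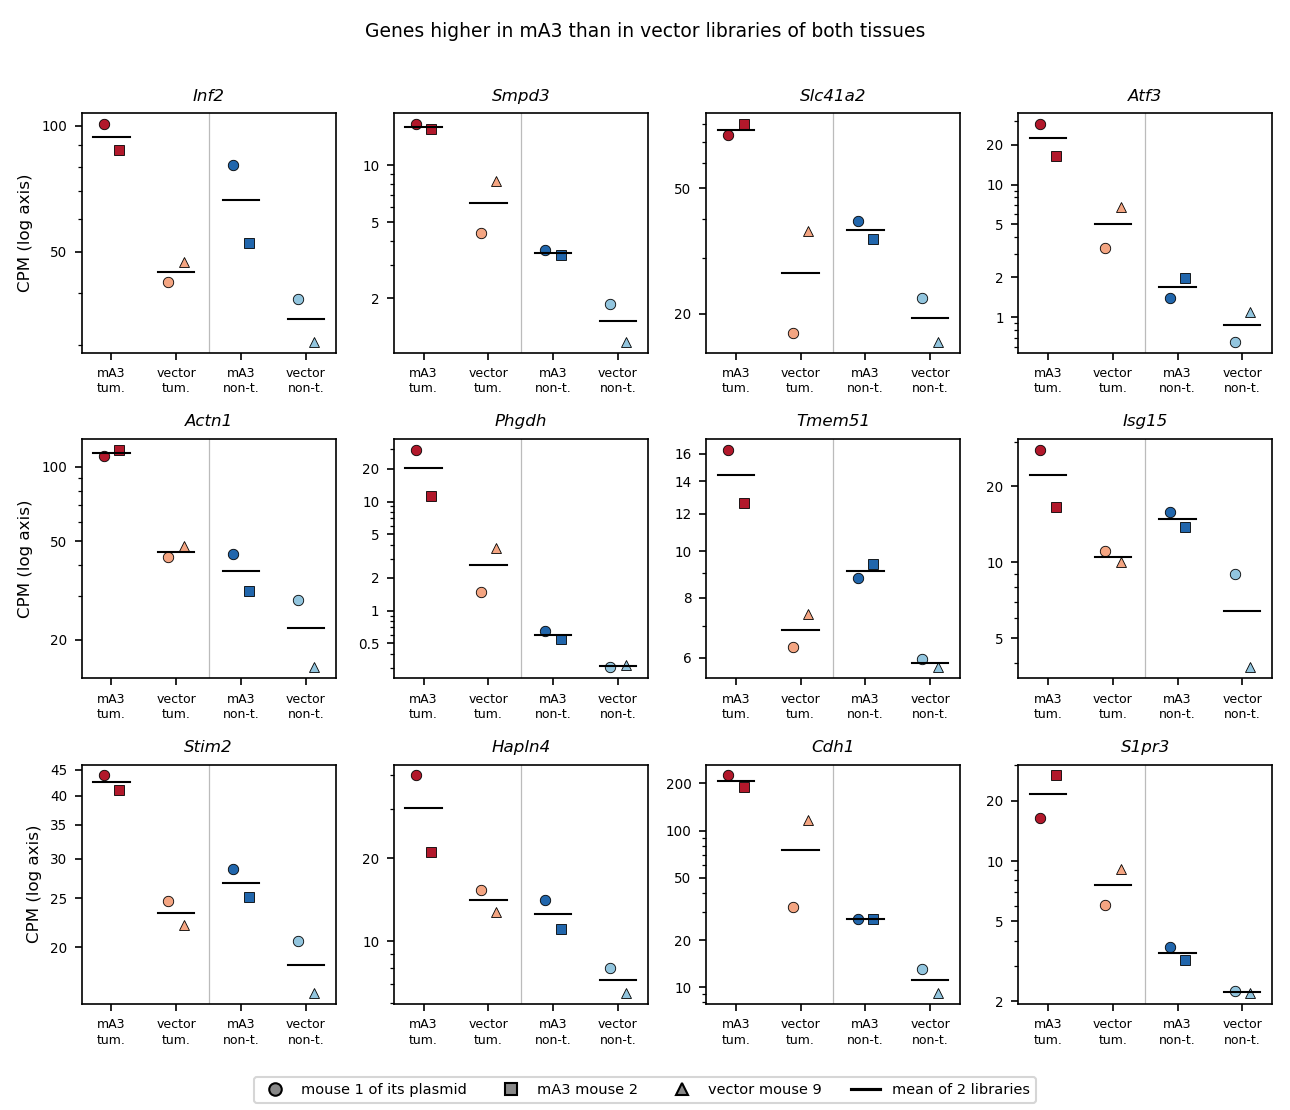
Level in each library (CPM, log axis) of the 12 genes higher in mA3, with mA3 left of vector in tumour and then in non-tumour liver; symbols mark the mouse and the bar is the mean of 2 libraries. The mA3 libraries lie above the vector libraries within each tissue in every panel, as the rule that chose the genes requires, and Phgdh and Atf3 are far lower in non-tumour liver than in tumour.

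Of 40 tested interferon-stimulated genes, 6 were higher (15.0%, beside 3.06% of all genes) and 0 lower at unadjusted p under 0.05, with a median of 0.26, against -0.01 over all genes. Isg15, a ubiquitin-like protein, was at 27.9 and 16.6 CPM in mA3 tumours, against 11.1 and 10 CPM in vector tumours, and at 15.8 and 13.8 CPM in mA3 non-tumour liver, against 8.98 and 3.84 CPM in vector non-tumour liver (log2 1.14 ± 0.30). The nucleic acid sensor Zbp1 differed by 0.99 ± 0.31, and Oas1a, an oligoadenylate synthetase, by 0.95 ± 0.31. The plasmids did not overlap in either tissue for these 3 genes. Without both libraries of mA3 mouse 1 the median of the 40 fell to 0.10, and without those of vector mouse 1 it fell to 0.15. The higher genes at that threshold were not kept without mA3 mouse 1, and neither run was free of lower ones. Of 20 chemokine genes, 2 were higher and 0 lower at unadjusted p under 0.05, the interferon-induced T cell attractants Cxcl9 (log2 0.98 ± 0.36) and Cxcl10 (0.75 ± 0.33). Without both libraries of vector mouse 9, 7 of the 20 were higher, and without those of mA3 mouse 2, 0 were. The median of the chemokines was 0.25, and -0.07 without vector mouse 1.

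The lists of tumour and fetal liver markers, NRF2 targets and MAPK feedback and Ets targets had higher medians in tumour than in non-tumour liver. Of 29 tumour and fetal liver markers, 5 were higher (17.2%, beside 3.06% of all genes) and 0 lower at unadjusted p under 0.05, with medians of 1.62 in tumour and -0.26 in non-tumour liver. Over both tissues the median was 0.70, and 0.21 without vector tumour 1, where 4 were higher and 2 lower. The count of higher genes was 9 without mA3 non-tumour 2 and 9 without vector non-tumour 1, and 8 without either of the other non-tumour libraries. With both libraries of vector mouse 1 left out, 7 were higher and 3 lower, and without those of vector mouse 9, 8 were higher and 0 lower. H19, an imprinted fetal RNA, differed equally in both tissues, at 10.3 and 14.0 CPM in mA3 tumours against 2.01 and 5.91 CPM in vector tumours, and at 9.50 and 7.41 CPM in mA3 non-tumour liver against 1.35 and 4.31 CPM in vector non-tumour liver (log2 1.62 and 1.60). Of 25 NRF2 targets, genes of the oxidant response, 6 were higher (24.0%) and 0 lower, with medians of 0.85 in tumour and 0.09 in non-tumour liver. Only 1 of the 25, G6pdx of the pentose phosphate pathway (0.77 ± 0.34), was free of overlap in both tissues. Without mA3 mouse 1 the median of the list was -0.05. The median of 0.43 became 0.77 with vector mouse 1 left out and 0.25 with vector mouse 9 left out. Of 16 MAPK feedback and Ets targets, 3 were higher (18.8%, beside 3.06% of all genes) and 0 lower, with medians of 0.68 in tumour and 0.02 in non-tumour liver. Their summed level was 376 and 345 CPM in mA3 tumours, against 158 and 356 CPM in vector tumours 1 and 9. Among the higher ones was Areg, a ligand of the EGF receptor. Areg was at 13.3 and 3.48 CPM in mA3 tumours and at 0.229 and 0.331 CPM in vector tumours, but at 0.174 and 0 CPM in mA3 non-tumour liver and at 0 CPM in both vector non-tumour libraries.

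Of 42 cell cycle genes, 4 were higher (9.52%, beside 3.06% of all genes) and 1 lower (2.38%, beside 3.75%) at unadjusted p under 0.05. The medians of this list were 0.21 in tumour and 0.34 in non-tumour liver. Mcm5, of the replicative helicase, was at 5.31 and 4.19 CPM in mA3 tumours, against 2.24 and 1.82 CPM in vector tumours, and at 3.05 and 1.72 CPM in mA3 non-tumour liver, against 1.45 and 0.941 CPM in vector non-tumour liver (log2 1.11 ± 0.33). Ccne1, cyclin E, differed by 1.88 ± 0.57 but overlapped in non-tumour liver. The repressor E2f8 was the lower one (-1.99 ± 0.62). The median of the list was 0.29, but -0.18 without both libraries of mA3 mouse 1, where the higher genes were not kept. It was -0.12 without those of vector mouse 1 and 0.83 without those of vector mouse 9.

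Markers of other cell types had from 0 to 2 genes per list at unadjusted p under 0.05 in a direction. T and NK cell markers had 0 of 21 in either direction and Kupffer cell markers 1 of 15 higher. Monocyte and macrophage markers had 1 of 22 higher, stellate cell markers 1 of 32 higher, and bile duct and progenitor markers 2 of 18 higher (11.1%, Prom1 and Anxa2). B and plasma cell markers had 2 of 22 higher (9.09%) and 1 lower (4.55%), neutrophil markers 1 of 7 lower (14.3%), and endothelial markers 1 of 25 higher. Erythroid, adipocyte and pancreas or gut markers had 0 of 8, 0 of 3 and 0 of 2, and the 1 skeletal muscle marker tested was lower. Summed marker levels of T and NK cells were 19.8 and 21.4 CPM in mA3 tumours, against 23.4 and 20.3 CPM in vector tumours, and 25.8 and 33.5 CPM in mA3 non-tumour liver, against 22.7 and 24.5 CPM in vector non-tumour liver. Neutrophil markers summed to 529 and 418 CPM in mA3 tumours, against 21.8 and 631 CPM in vector tumours, and to 27.8 and 17.6 CPM in mA3 non-tumour liver, against 9.83 and 115 CPM in vector non-tumour liver. Vector mouse 9 was thus highest for neutrophil markers in both tissues, and the part of these cells in the differences above was not tested. Of 14 genes of PRC2 and the H3K27 demethylases, 1 was lower (7.14%, beside 3.75% of all genes), Phf1 (log2 -0.75 ± 0.33), and 0 were higher.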

How the data were processed

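RNA was extracted with Trizol and sequenced from standard Illumina libraries, per the labels' protocols. The table deposited by the authors has, per the file headers, counts and FPKM values (counts scaled by gene length and library size) of 34745 genes in 8 libraries. Not given in the sources used here are aligner, counter, annotation and strandedness. The submitters' processing notes name build mm8 and Agilent Feature Extraction 10.7, but of 34745 gene identifiers 34344 were in GENCODE vM21 (GRCm38), all on the same chromosome, and 81.7% of these had start and end within 1 bp.

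Counts were analysed with edgeR 4.0.16 in R 4.3.3 (filterByExpr by group, TMM factors, quasi-likelihood test, Benjamini-Hochberg over 15009 genes, biological coefficient of variation 40.2%, 5 residual degrees of freedom). CPM and log2 differences were computed from the counts. Standard errors come from the F statistic, and the code was tested on simulated counts. limma 3.58.1 and DESeq2 1.42.0 served as alternatives, as did libraries or mice left out. With 2 libraries per group, precision is low. A tumour and a non-tumour library whose titles carry the same plasmid and number were taken as 1 mouse, and their deviations from group means correlated at 0.1746 in mA3 and 0.1067 in vector mice. The test treats them as separate, so its p-values measure the spread between libraries of 4 mice.

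The genes named are Apobec3, then up to 12 higher and 12 lower same-sign genes with the smallest p, no overlap between plasmids in either tissue and a mean of at least 5 CPM, and up to 4 genes per list. Pseudogenes and Gm, Rik or accession-like symbols were not named. The same-sign genes and the gene lists were chosen with earlier results of these data known, and further genes named for their role were chosen after their values were seen. Some genes counted in the lists are not reported here by name.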

Additional observations from a re-analysis of the deposited data

How the results depend on the processing

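Over both tissues, where edgeR called 0 genes, DESeq2 called 54, edgeR without a filter on low counts called 294, and leaving out both libraries of a mouse gave 1 (mA3 mouse 1), 0 (mA3 mouse 2), 290 (vector mouse 1) and 0 (vector mouse 9). With 1 library left out the count ran from 0 to 9, with 9 without vector non-tumour 1. In tumour alone, 1084 genes were called without a filter, 508 by DESeq2, and 0 to 270 with 1 library left out, with 270 without vector tumour 9. In non-tumour liver 56 were called without a filter and 0 by DESeq2, and the interaction gave 316 and 12. The cause of these differences was not tested. RLE factors, a CPM filter, voom, FPKM values and the mouse as the unit called 0 genes over both tissues. Pairing libraries through the mouse as a random block in limma-voom also called 0, with 705 genes higher and 505 lower at unadjusted p under 0.05 (consensus correlation -0.052), and the block in the interaction called 0. The number of same-sign genes ran from 6041 of 15663 tested without vector non-tumour 9 to 10059 of 15628 without vector non-tumour 1. Of the 6041, 4483 were shared (55.9% of the 8022). Without a filter the number was 10731 of 23237, a smaller share than the 53.4% given above. For Apobec3 and the 24 genes chosen by smallest p, no alternative run reversed the direction; other named list genes were not tabulated this way, and by its levels Arntl is one that turned without vector mouse 9. Leaving out vector tumour 1 and vector non-tumour 9 together was chosen after seeing the data. Depth limits genes near 0, such as Areg in non-tumour liver.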

Other observations

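Several lists had medians in tumour with no counterpart in non-tumour liver. Genes known to be higher in male liver had a median log2 difference of -2.95 in tumour and 0.49 in non-tumour liver over 30 genes, with 0 at unadjusted p under 0.05 over both tissues. Their summed level was 7071 and 6202 CPM in mA3 tumours, against 41962 and 8412 CPM in vector tumours 1 and 9. In non-tumour liver it was 84983 and 73570 CPM in mA3 mice, against 54792 and 67457 CPM in vector mice. In this sum vector tumour 9 was thus near the mA3 tumours and vector tumour 1 was not. The 24 genes of cholesterol synthesis and uptake had medians of 1.30 in tumour and -0.41 in non-tumour liver, and the 23 endoplasmic reticulum chaperones and unfolded protein response genes had 1.19 and -0.22. The 58 nuclear-encoded respiratory chain genes had -0.88 and 0.01. The interaction of plasmid and tissue passed adjustment for 0 of 15009 genes in edgeR and for 12 in DESeq2.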
